A study of Mus musculus with 12 samples.

Results

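The interferon response and antigen presentation genes described here are 33 named genes, chosen by symbol from the 48321 gene rows of an RNAseq table of immortalized murine brown adipocytes. They comprise 4 transcription factors (Irf1, Irf7, Irf9, Stat2), 3 cytoplasmic RNA sensors (Ddx58, Ifih1, Dhx58), 13 antiviral effectors (Ifit1, Ifit2, Ifit3, Oas1a, Oas2, Oasl2, Mx1, Mx2, Rsad2, Bst2, Samhd1, Rtp4, Ifi44), 6 genes of the ISG15 system and signal regulation (Isg15, Usp18, Trim25, Parp14, Xaf1, Ifi35), 2 guanylate-binding proteins (Gbp2, Gbp3) and 5 genes of class I antigen presentation (B2m, H2-K1, H2-D1, Tap1, Tapbp). All 33 were listed, and 32 passed the filter of at least 10 normalised counts in at least 3 libraries that left 11998 genes for testing. Mx1, a dynamin-like antiviral GTPase, did not pass and was listed at 0 to 10.9 normalised counts.

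The cells were WT C57BL/6J preadipocytes from interscapular brown fat, which by the methods of the study came from 1 newborn mouse, immortalized with SV40 Large T antigen, transduced with lentivirus carrying the empty pLEX vector or mouse tSema4B, and differentiated for 8 days. tSema4B is a truncated, Flag-tagged Sema4B that stands for the soluble, cleaved protein. Each line was left unstimulated or treated with 2 μM norepinephrine (NE), the adrenergic agonist that activates thermogenesis in brown fat, for 6 h, which gave 4 groups of 3 libraries. All 4 groups share the immortalization, the viral transduction and the differentiation medium, and 1 line stands for each construct. By its labels each group holds 3 technical replicates, and whether they came from separate cultures is not stated, so p-values and the n = 3 below cover only the spread between these libraries, which may be technical.

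Type I interferons bind a receptor made of Ifnar1 and Ifnar2, which activates the kinases Jak1 and Tyk2. The kinases activate Stat2, which joins Irf9 in a complex that binds the interferon-stimulated response element (ISRE) in the promoters of antiviral genes. Interferon gamma acts through the gamma-activated site (GAS). Class I antigen presentation shows peptides on H2-K and H2-D heavy chains, which need the light chain B2m, the peptide transporter Tap1 and the loading factor Tapbp. Many cell types express some of these genes without added interferon.

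Promoter windows were read to show which of these genes carry the elements at their RefSeq start (GRCm38.p6, 250 bases before to 50 after). A window was matched for 26 of the 33 genes. The 7 without one were Dhx58, Oas2, Mx1, Mx2, Rtp4, Usp18 and Parp14. An ISRE core, searched on both strands as a pair of GAAA half-sites with 2 free bases between them, stood in 12 of the 26 (46.2%), and in 1079 of 27025 genes over the whole table (3.99%). The GAS, searched as TTCNNNGAA, which reads alike on both strands, stood in 6 of the 26 (23.1%), against 2582 of 27025 (9.55%). The 2 motifs can overlap, as they do in Bst2. Of the genes called in the comparisons below, Gbp2 and Ddx58 hold an ISRE core (that of Ddx58 does not lie wholly before the start and is not shown) and Ifit2 a GAS, while the windows of Trim25 and Tapbp hold neither set of letters. These matches are descriptions of letters and not of binding.
The lines below give 30 bases along the strand of the gene around some of these matches, chosen from genes described further on, with the motif in capitals. Matches written with TTTC half-sites are the ISRE core read from the opposite strand.
Ifit3 (ISRE core, first base 156 before the start, chr19:34583363-34583392): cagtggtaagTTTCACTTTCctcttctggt
Ifit3 (ISRE core, first base 122 before the start, chr19:34583397-34583426): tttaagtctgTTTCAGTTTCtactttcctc
Isg15 (ISRE core, first base 78 before the start, chr4:156200877-156200906, minus strand): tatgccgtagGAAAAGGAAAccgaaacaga
Gbp2 (ISRE core, first base 59 before the start, chr3:142620594-142620623): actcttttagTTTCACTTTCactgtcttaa
Gbp3 (ISRE core, first base 45 before the start, chr3:142559989-142560018): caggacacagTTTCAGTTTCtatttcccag
B2m (ISRE core, first base 139 before the start, chr2:122147538-122147567): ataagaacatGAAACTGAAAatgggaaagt
Ifit2 (GAS, first base 241 before the start, chr19:34550444-34550473): catgggagcTTCCTGGAAgaatggataaaa
Irf1 (GAS, first base 90 before the start, chr11:53769914-53769943): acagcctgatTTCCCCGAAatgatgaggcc

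Sequencing depth differed between groups and limits the low genes. Reads counted on genes lay between 2000780 and 5409583 per library, and within each condition every vector library was deeper than every tSema4B library. Ptprc and Cd3e (lymphocytes), Adgre1 (macrophages) and Itgax (dendritic cells) had no read in any library. The whole lymphocyte list of 10 genes had 17 reads, the macrophage list of 10 genes 445 and the dendritic cell list of 7 genes 544. Of the macrophage list 4 genes had no read and 2 were tested, Csf1r and Cd14, both higher with NE in vector cells (median log2 fold change 1.86) and Csf1r also in tSema4B cells. The summed macrophage list ranged from 13.1 to 21.7 normalised counts in vector unstimulated, 17.8 to 29.4 in tSema4B unstimulated, 41.7 to 59.6 in vector NE and 26.8 to 52.1 in tSema4B NE libraries, and its part in the NE comparisons was not tested. Neither of the 2 tested dendritic cell genes was called. Of 12 adipocyte markers, 12 were lower in tSema4B than in vector cells in each condition (median log2 fold change -2.51 unstimulated and -2.02 with NE), and their summed level ranged from 35598 to 39832 normalised counts in vector unstimulated and from 5949 to 8542 in tSema4B unstimulated libraries, and from 50750 to 63575 in vector NE and from 10334 to 11885 in tSema4B NE libraries. Of 10 tested preadipocyte and fibroblast markers, 8 were higher in tSema4B cells unstimulated and 9 with NE, with summed levels from 16796 to 17426 in vector unstimulated, 31517 to 35834 in tSema4B unstimulated, 13908 to 15992 in vector NE and 29573 to 31415 in tSema4B NE libraries. Every difference between the lines given below moved with these markers, and their part in it was not tested. In bulk libraries fewer cells of a type and less RNA per cell cannot be told apart.

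B2m and the heavy chains H2-D1 and H2-K1 had the highest levels of the 33 genes. Per kilobase of exon, on the scale of mean normalised counts over the 12 libraries, B2m was at 8357, H2-D1 at 971, H2-K1 at 501 and Tapbp at 178, while Tap1 was at 24.4. Bst2, which tethers budding virus at the membrane, was the highest antiviral effector at 319, followed by Rtp4, a chaperone of membrane receptors, at 83.2. Isg15, a ubiquitin-like modifier, was at 128 and Irf1 at 77.6. The sensors lay between 16.1 for Dhx58 and 35.1 for Ddx58. The lowest levels were 3.25 for Mx2, 2.50 for Oas2, a synthetase of the signal molecule that activates RNase L, and 0.726 for Mx1. Mx2 is annotated as a polymorphic pseudogene, so its reads need not stand for a working protein. How reads that map to several places were counted is not given in the sources used here, so levels of close relatives (H2-K1 and H2-D1, the Ifit genes, Oas1a, Mx1 and Mx2, Gbp2 and Gbp3) are uncertain to that extent. The library kit does not mark strand, and Tap1 shares 212 exon bases with Psmb9, Ifi35 290 with Gm11626 and Rtp4 296 with Gm45338. Their counts may hold reads of these neighbours or miss some of their own.

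Libraries of 1 group differed more in these genes than most genes did, and they differed together. Among vector unstimulated libraries, replicate 1 was the lowest for 26 of the 32 genes, and among tSema4B unstimulated libraries replicate 3 was the lowest for 26. Replicate 2 was the lowest of the vector NE libraries for 25, and replicate 3 of the tSema4B NE libraries for 26. The same libraries were the lowest for 31.7%, 33.8%, 35.1% and 33.8% of the 11998 genes tested. This order was noticed in the values of these genes, so its counts are a description.

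The values of Oasl2, an OAS-like antiviral protein, show the pattern. Oasl2 was at 85.8, 284 and 398 normalised counts in vector unstimulated replicates 1, 2 and 3, and at 352, 312 and 139.6 in tSema4B unstimulated libraries. It was at 144, 107 and 173 in vector NE and at 234, 192 and 76.6 in tSema4B NE libraries. The span within vector unstimulated libraries was 4.63-fold, and no 2 of the 4 groups were apart from each other. Ifi44, an interferon-induced protein of unclear function, was at 113, 246 and 468 in vector unstimulated, 414, 294 and 108 in tSema4B unstimulated, 152, 99.6 and 122 in vector NE and 339.9, 207 and 149 in tSema4B NE libraries. In each group the lowest library was the same as for Oasl2. Isg15 was at 40.2, 123 and 151 in vector unstimulated, 136, 104 and 57.5 in tSema4B unstimulated, 75.9, 63.4 and 113 in vector NE and 159, 78.6 and 64.7 in tSema4B NE libraries. Irf7, the factor that amplifies the interferon response, was at 99.9, 153 and 257 in vector unstimulated, 297, 190.3 and 86.3 in tSema4B unstimulated, 119.6, 75.9 and 106 in vector NE and 188, 183 and 85.9 in tSema4B NE libraries. Both genes were lowest in the same 4 libraries as Oasl2 and Ifi44.

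**Figure D1:**
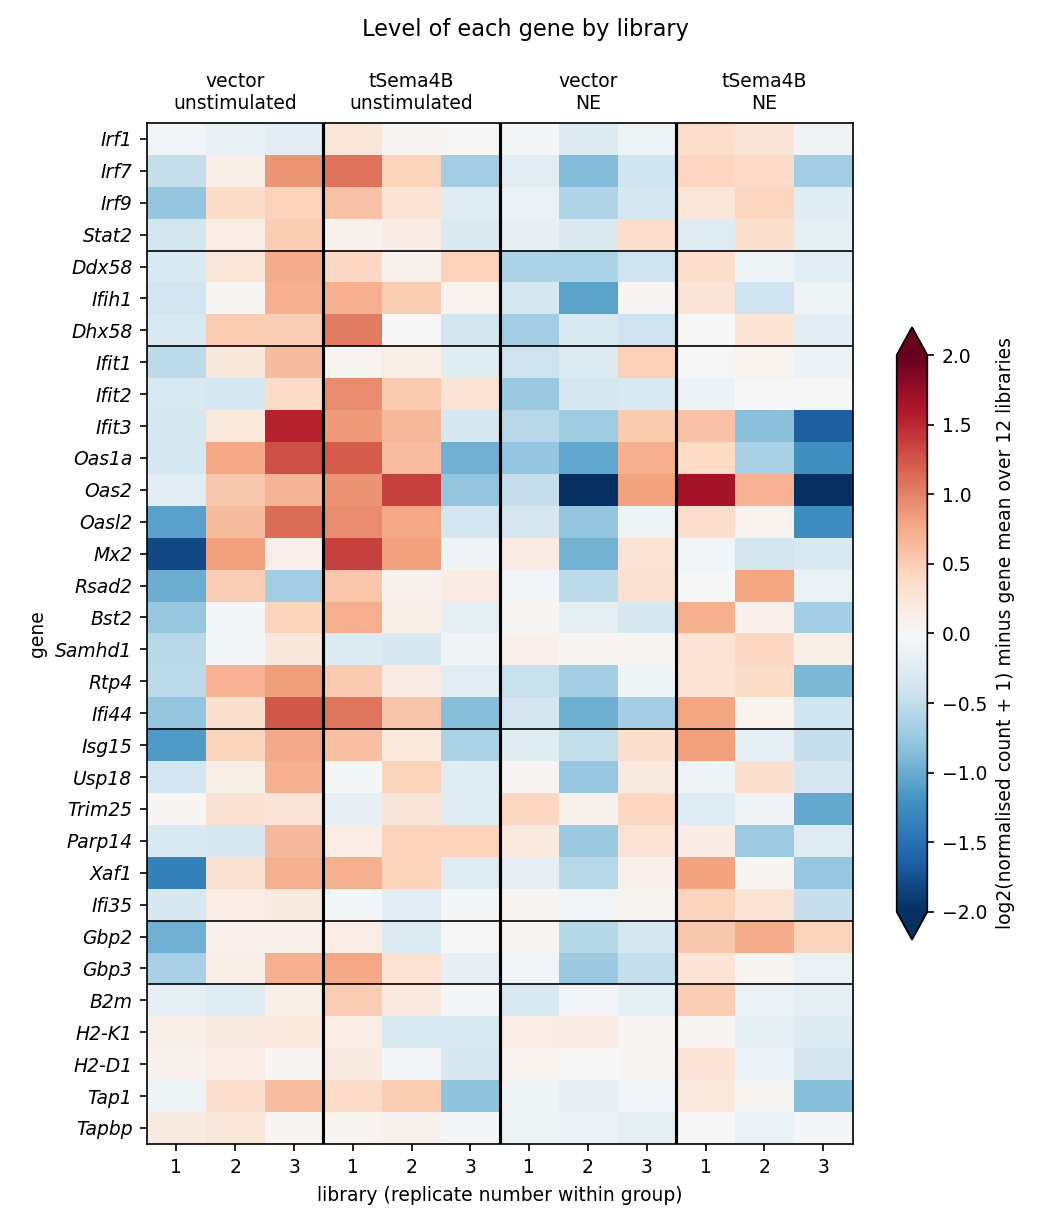
Level of 32 interferon response and antigen presentation genes (rows, Mx1 left out) in 12 libraries (columns, numbered by replicate within each group), as log2(normalised count + 1) minus the mean of the gene over the 12 libraries; colours stop at -2 and 2. Most rows turn blue together in vector unstimulated replicate 1, tSema4B unstimulated replicate 3, vector NE replicate 2 and tSema4B NE replicate 3, while Tapbp and H2-K1 stay pale.

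Of the 32 genes, 14 were lowest in that library in all 4 groups and another 14 in 3 groups. Of all genes tested, 1.60% were so in all 4 groups and 10.1% in 3. The 14 were Irf7, Irf9, Ifit3, Oas1a, Oas2, Oasl2, Rtp4, Ifi44, Isg15, Usp18, Trim25, Xaf1, Gbp3 and Tap1. Ifit2, Parp14 and Tapbp followed the order in 1 group and B2m in 2. Other interferon-stimulated genes, 48 tested from a separate list that took no part in choosing the libraries, were lowest in these 4 libraries for 36, 36, 24 and 29 genes, and 13 of the 48 followed in all 4 groups. The 9 tested interferon receptors and kinases were lowest in them for 2, 4, 4 and 6 genes, the 12 sensing adaptors and kinases for 7, 6, 5 and 5, the 12 adipocyte markers for 0, 2, 2 and 9 and the 10 preadipocyte and fibroblast markers for 6, 7, 5 and 3. The reads of these 4 libraries were 2841941, 2217652, 5409583 and 2307190, of which the first and the last are the lowest and the third the highest of their groups. What these libraries share was not tested.

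**Figure D2:**
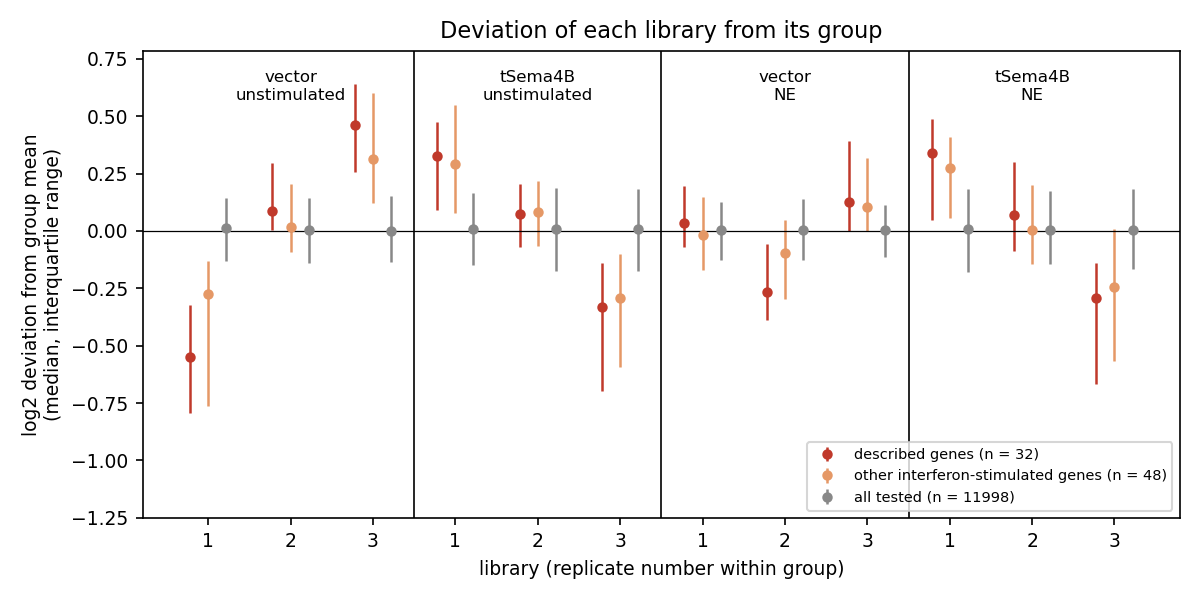
Log2 deviation of each library from the mean of its group, as the median (points) and interquartile range (bars) over the 32 genes, 48 other interferon-stimulated genes and 11998 genes tested. The medians of the 32 genes run from -0.55 to 0.46 in vector unstimulated libraries, and those of all genes stay near 0.

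Several of these genes were among the most variable of the table within groups. Divided by the value expected at their abundance, the within-group SD on the log2 scale had a median ratio of 1.77 over the 32 genes and of 0.984 over all genes tested, and it was above 2 for 14 of 32 (43.8%) and for 1.23% of all genes. For the 48 other interferon-stimulated genes the median ratio was 1.51, and 13 (27.1%) were above 2. For the 12 adipocyte markers it was 1.34, with 3 (25%) above 2. For the 9 interferon receptors and kinases it was 0.92, with 0 above 2. Oasl2 (4.04) and Ifi44 (3.99) had ranks 1 and 2 of 11998, B2m (3.13) rank 4, Bst2 (3.00) rank 9 and Irf7 (2.93) rank 11. Tapbp at 0.574 and Irf1 at 0.877 were the only ones of the 32 below 1. The fold changes of the 32 genes accordingly had a median SE of 0.27 on the log2 scale, and those of all genes 0.23. The limma model draws the variance of each gene towards the value expected at its abundance. For the 30 genes with a ratio above 1, the SE, interval and p-value thus rest on a smaller spread than their own.

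Without stimulation, tSema4B and vector cells were compared to see whether the construct moved these genes, and 1 of the 32 passed the test. Ifit2, an antiviral protein that binds RNA, was higher in tSema4B cells, and none was called lower. A call is an adjusted p of 0.05 or less in limma, adjusted over 11998 genes. Of all genes tested 5.64% were higher and 7.39% lower. At an unadjusted p under 0.05, 2 of the 32 were higher and 1 lower (12.3% and 13.9% of all genes), and edgeR and DESeq2 called Ifit2 alone, with 0 lower. The median log2 fold change of the 32 genes was 0.07, and that of all genes tested was -0.0025.

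Ifit2 (chr19:34550694-34576419) was at 151, 146 and 245 normalised counts in vector and at 359.9, 269 and 229 in tSema4B unstimulated libraries. The lowest tSema4B library lay below the highest vector library, so the groups overlapped. The means were 181 ± 55.7 and 286 ± 67.2 (SD, n = 3), a log2 fold change of 0.67 (SE 0.20, limma adjusted p = 0.0240). The log2 fold change was 0.57 (limma adjusted p = 0.121) without vector unstimulated replicate 1, 0.54 (limma adjusted p = 0.136) without replicate 2 and 0.50 (limma adjusted p = 0.141) without tSema4B unstimulated replicate 1. Fewer libraries also lowered the calls over all genes, from 677 higher to 460 without either of these vector libraries.

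B2m and H2-K1, which pair in the class I molecule, lay on different sides of 0. B2m was at 6194, 5878 and 7697 in vector and at 10063, 8103 and 6982 in tSema4B unstimulated libraries. H2-K1 was at 1580.0, 1645 and 1685 in vector and at 1618, 1183 and 1180.1 in tSema4B unstimulated libraries. In each gene the groups overlapped through 1 tSema4B library. The log2 fold change was 0.34 (95% interval 0.050 to 0.63, limma adjusted p = 0.117) for B2m and -0.32 (-0.54 to -0.098, limma adjusted p = 0.0511) for H2-K1, and neither passed the test. H2-K1 was called lower under 5 of the 16 alternatives, namely a pseudocount of 10 (limma adjusted p = 0.0427), a filter of 50 (0.0362), quantile normalisation (0.0376), the replicate block (0.0376) and without tSema4B unstimulated replicate 1 (-0.47 on the log2 scale, limma adjusted p = 0.00262). For B2m, the value without tSema4B unstimulated replicate 3 was 0.46 (limma adjusted p = 0.0481). With each library left out in turn the B2m value ran from 0.20 to 0.46, with limma adjusted p up to 0.438. H2-D1 at -0.14, Tap1 at -0.25 and Tapbp at -0.12 did not pass either.

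Irf1, an early factor of the interferon gamma response, was the 1 gene of 32 whose unstimulated groups did not overlap, and 29.4% of all genes tested had groups apart in this comparison. It was at 293, 276 and 265 in vector and 361, 316 and 305 in tSema4B libraries. Its log2 fold change of 0.23 (95% interval -0.039 to 0.50) did not pass the test (limma adjusted p = 0.276). For the genes with the widest spread the interval was broad, as in Ifi44 (-0.85 to 0.86) and Oasl2 (-0.67 to 1.11).

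After NE, tSema4B cells were compared with vector cells, and 3 of the 32 genes passed the test. Ddx58, which encodes the RNA sensor RIG-I, and Gbp2, an interferon-induced GTPase that acts on intracellular pathogens, were higher in tSema4B cells. Trim25, the ubiquitin ligase that activates RIG-I, was lower. Of all genes tested 9.79% were higher and 11.2% lower (1175 and 1342 genes), a balance that turned to 1651 higher and 1030 lower with libraries rescaled to the same total. edgeR and DESeq2 called the same 3 genes, and none of them changed by a log2 fold change of 1 or more. The median log2 fold change was 0.20 over the 32 genes and -0.010 over all genes. Values above 0 were found for 23 of the 32 and for 49.0% of all genes. The 32 genes moved together by library, so these are not separate observations.

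Gbp2 (chr3:142620602-142638008) was at 163, 106 and 124 normalised counts in vector NE and at 229, 263 and 215 in tSema4B NE libraries, with no overlap. The means were 131 ± 29.2 and 236 ± 24.6 (SD, n = 3), a log2 fold change of 0.86 (SE 0.23, limma adjusted p = 0.0101). Without vector NE replicate 2, the library in which 25 of the 32 genes were lowest, it was 0.72 (limma adjusted p = 0.0627). In unstimulated cells Gbp2 was at 80.4, 169.8 and 169.9 in vector and at 174, 129.9 and 157 in tSema4B libraries, a log2 fold change of 0.20 (95% interval -0.28 to 0.68). Gbp3 (log2 fold change 0.49 with NE, limma adjusted p = 0.208), which also carries an ISRE core, did not pass.

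Trim25 (chr11:88999376-89020293) was at 368, 295 and 371 in vector NE and at 232, 263 and 136 in tSema4B NE libraries. All 3 tSema4B values lay below the lowest vector value. The means were 345 ± 43.1 and 210.3 ± 66.2 (SD, n = 3), and the log2 fold change was -0.76 (SE 0.19, limma adjusted p = 0.00642). Trim25 was the 1 gene of the 32 whose call held under all 16 alternatives that kept the threshold (other pseudocounts, filters, scalings, tests and models, the block, and each library left out). The adjusted p was at most 0.0493, reached without tSema4B NE replicate 3, where its log2 fold change was -0.47. In that library 26 of the 32 genes were lowest, and Trim25 is among those that followed the order in all 4 groups. In unstimulated cells it was at 281, 341 and 333 in vector and at 247, 331 and 234 in tSema4B libraries (log2 fold change -0.25, 95% interval -0.64 to 0.15).

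Ddx58 (chr4:40203773-40239828) was at 155, 152 and 177 in vector NE and at 301, 222 and 203 in tSema4B NE libraries. The groups did not overlap, and replicate 1 stood above the other tSema4B libraries. The means were 161 ± 13.9 and 242 ± 52.1 (SD, n = 3), a log2 fold change of 0.56 (SE 0.20, limma adjusted p = 0.0481). This call was lost under 9 of the 16 alternatives. Without tSema4B NE replicate 1 the log2 fold change was 0.40 (limma adjusted p = 0.206), and without tSema4B NE replicate 2 it was 0.62 (limma adjusted p = 0.0650). Without vector NE replicates 1, 2 and 3 it was 0.53, 0.52 and 0.63 (limma adjusted p = 0.123, 0.134 and 0.0672). The other sensors did not pass, with log2 fold changes of 0.38 for Ifih1, which encodes MDA5, and 0.48 for Dhx58, which encodes LGP2.

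**Figure D3:**
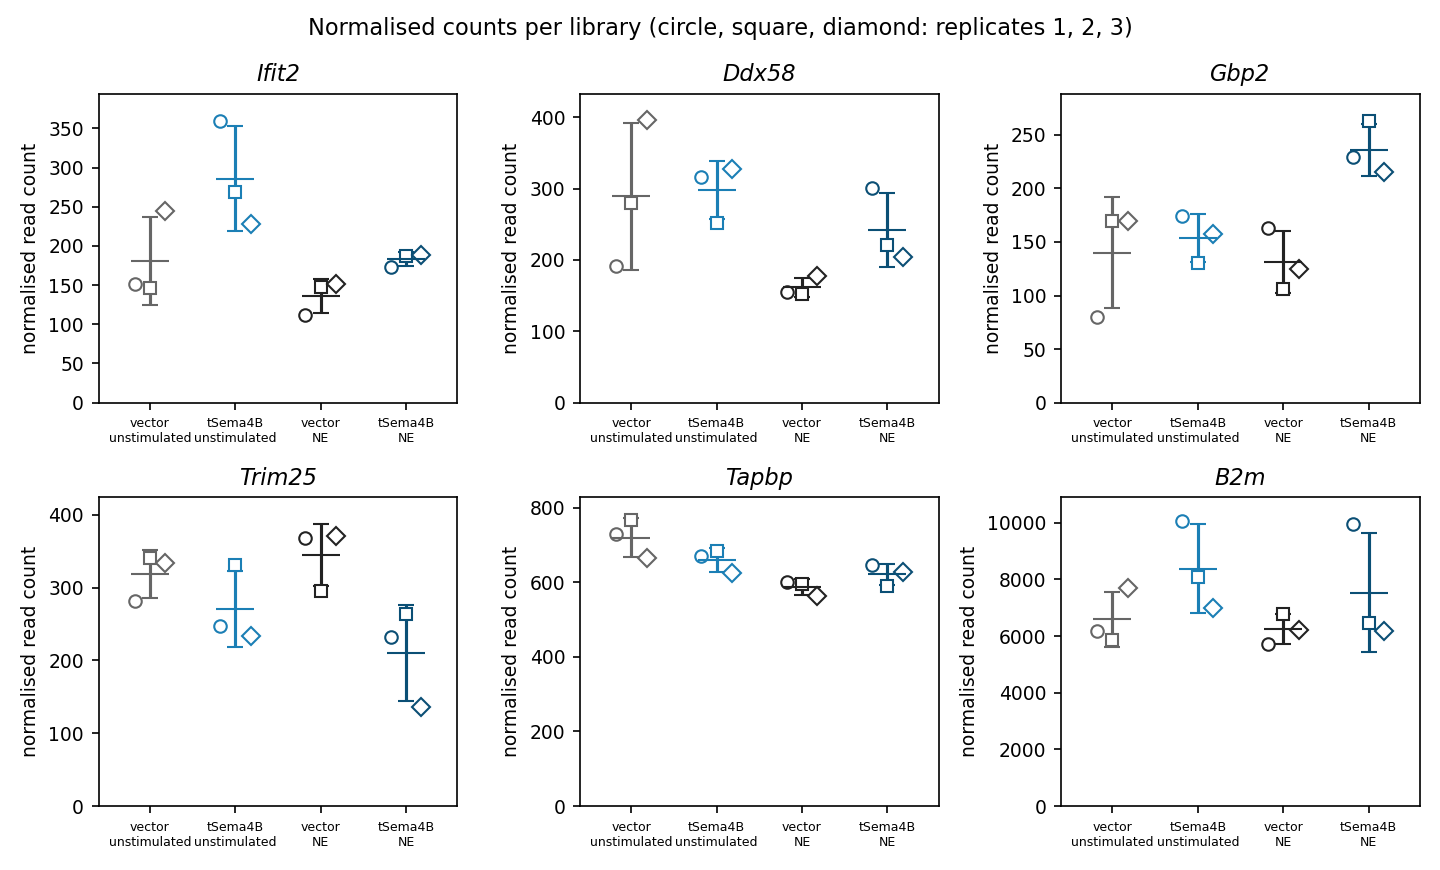
Normalised read counts of Ifit2, Ddx58, Gbp2, Trim25, Tapbp and B2m in each library of the 4 groups (open symbols by replicate), with mean and SD (line and bars, n = 3); axes start at 0. Gbp2 is higher in the 3 tSema4B NE libraries (215 to 263) than in the 3 vector NE libraries (106 to 163), and Trim25 is lower (136 to 263 against 295 to 371).

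Beside these, Dhx58, Ifit2 and Samhd1 had NE groups that did not overlap, all higher in tSema4B cells, which made 6 of 32 (18.8%), and 37.7% of all genes tested had groups apart. Ifit2 was at 112, 147 and 151 in vector NE and at 173, 187 and 189 in tSema4B NE libraries, a log2 fold change of 0.43 (limma adjusted p = 0.127). Samhd1, which depletes the nucleotides that viruses need, was at 200.2, 192 and 194 in vector NE and at 227, 248 and 202 in tSema4B NE libraries, a log2 fold change of 0.20 (limma adjusted p = 0.443). The class I genes had log2 fold changes of 0.24 for B2m, -0.25 for H2-K1 (95% interval -0.47 to -0.029), -0.12 for H2-D1, -0.10 for Tap1 and 0.08 for Tapbp, and none passed. H2-K1 passed without tSema4B NE replicate 1 (-0.34, limma adjusted p = 0.0333). Ifi44 (0.83, limma adjusted p = 0.163) passed in a model of only the 6 libraries compared (0.83, limma adjusted p = 0.0246). With each library left out in turn its value ran from 0.52 to 1.11, with limma adjusted p up to 0.456. Irf1 (0.32, limma adjusted p = 0.0911) passed after rescaling to the same total (0.41, limma adjusted p = 0.0312) and without tSema4B NE replicate 3 (0.44, limma adjusted p = 0.0269).

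NE was compared with no stimulation in vector cells, and 2 of the 32 genes passed, both lower. These were Ddx58 and Tapbp, the tapasin that loads peptides on class I molecules. Of all genes tested 4.78% were lower and 6.82% higher (574 and 818 genes), which became 708 and 687 with libraries rescaled to the same total. None of the 32 was called higher by limma, edgeR or DESeq2, and none at an unadjusted p under 0.05 (12.8% of all genes). Values below 0 were found for 26 of the 32 and above 0 for 6, while 47.9% of all genes lay above 0. The median log2 fold change was -0.24, against -0.019 over all genes. These genes rose and fell together by library, so their signs are not separate observations. At an unadjusted p under 0.05, 6 of the 32 were lower, as were 11.1% of all genes.

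Ddx58 was at 191, 280.0 and 396 in vector unstimulated libraries and at 155, 152 and 177 in vector NE libraries. All 3 NE values lay below the lowest unstimulated value. The log2 fold change was -0.78 (SE 0.20, limma adjusted p = 0.0131). It was -0.52 (limma adjusted p = 0.109) without vector unstimulated replicate 3 and -0.74 (limma adjusted p = 0.0504) without vector NE replicate 2. Tapbp (chr17:33915899-33929292) was at 729.8, 766 and 664 in vector unstimulated and at 601, 596 and 562 in vector NE libraries, with no overlap. The means were 720.0 ± 51.5 and 587 ± 21.2 (SD, n = 3), a log2 fold change of -0.29 (SE 0.09, limma adjusted p = 0.0454). It was the steadiest of the 32 genes within groups, but its call was lost under 7 of the 16 alternatives. The log2 fold change stayed between -0.25 and -0.31 in these 7, with adjusted p of 0.130 and 0.176 without vector unstimulated replicates 1 and 2 and 0.0826, 0.0938 and 0.172 without vector NE replicates 1, 2 and 3. Tapbp shares 904 exon bases with Gm19412, and it also overlaps exons of Zbtb22. Its counts may hold reads of these neighbours or miss some of its own. Ddx58 and Tapbp were also the 2 of 32 whose groups did not overlap, and 33.3% of all genes had groups apart.

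This comparison moved most with 1 library. Without vector unstimulated replicate 1, in which 26 of the 32 genes were lowest, 6 genes were called lower with NE in place of 2, while the genes called lower over all 11998 went from 574 to 340. The 6 were Ddx58 and 5 others, namely Irf9 at -0.78 (limma adjusted p = 0.0320), Oasl2 at -1.27 (limma adjusted p = 0.0405), Rtp4 at -1.17 (limma adjusted p = 0.0165), Ifi44 at -1.46 (limma adjusted p = 0.0270) and Gbp3 at -0.84 (limma adjusted p = 0.0421). With that library their log2 fold changes were -0.38, -0.62, -0.74, -0.94 and -0.48, and none of the 5 passed. Each of the 5 was lowest in that library among the vector unstimulated libraries, so leaving it out had to raise their unstimulated means. The added calls are thus a description and not separate support for a fall with NE. Leaving out other libraries brought these log2 fold changes as near to no change as -0.16, -0.17, -0.49, -0.44 and -0.15. The limma adjusted p then reached 0.815, 0.882, 0.458, 0.608 and 0.809. With all libraries Ifi44 was called by edgeR (-1.15, adjusted p = 0.0453) and in a limma model of only the 6 libraries compared (-0.94, adjusted p = 0.0476). Without vector NE replicate 2, 0 were called lower.

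**Figure D4:**
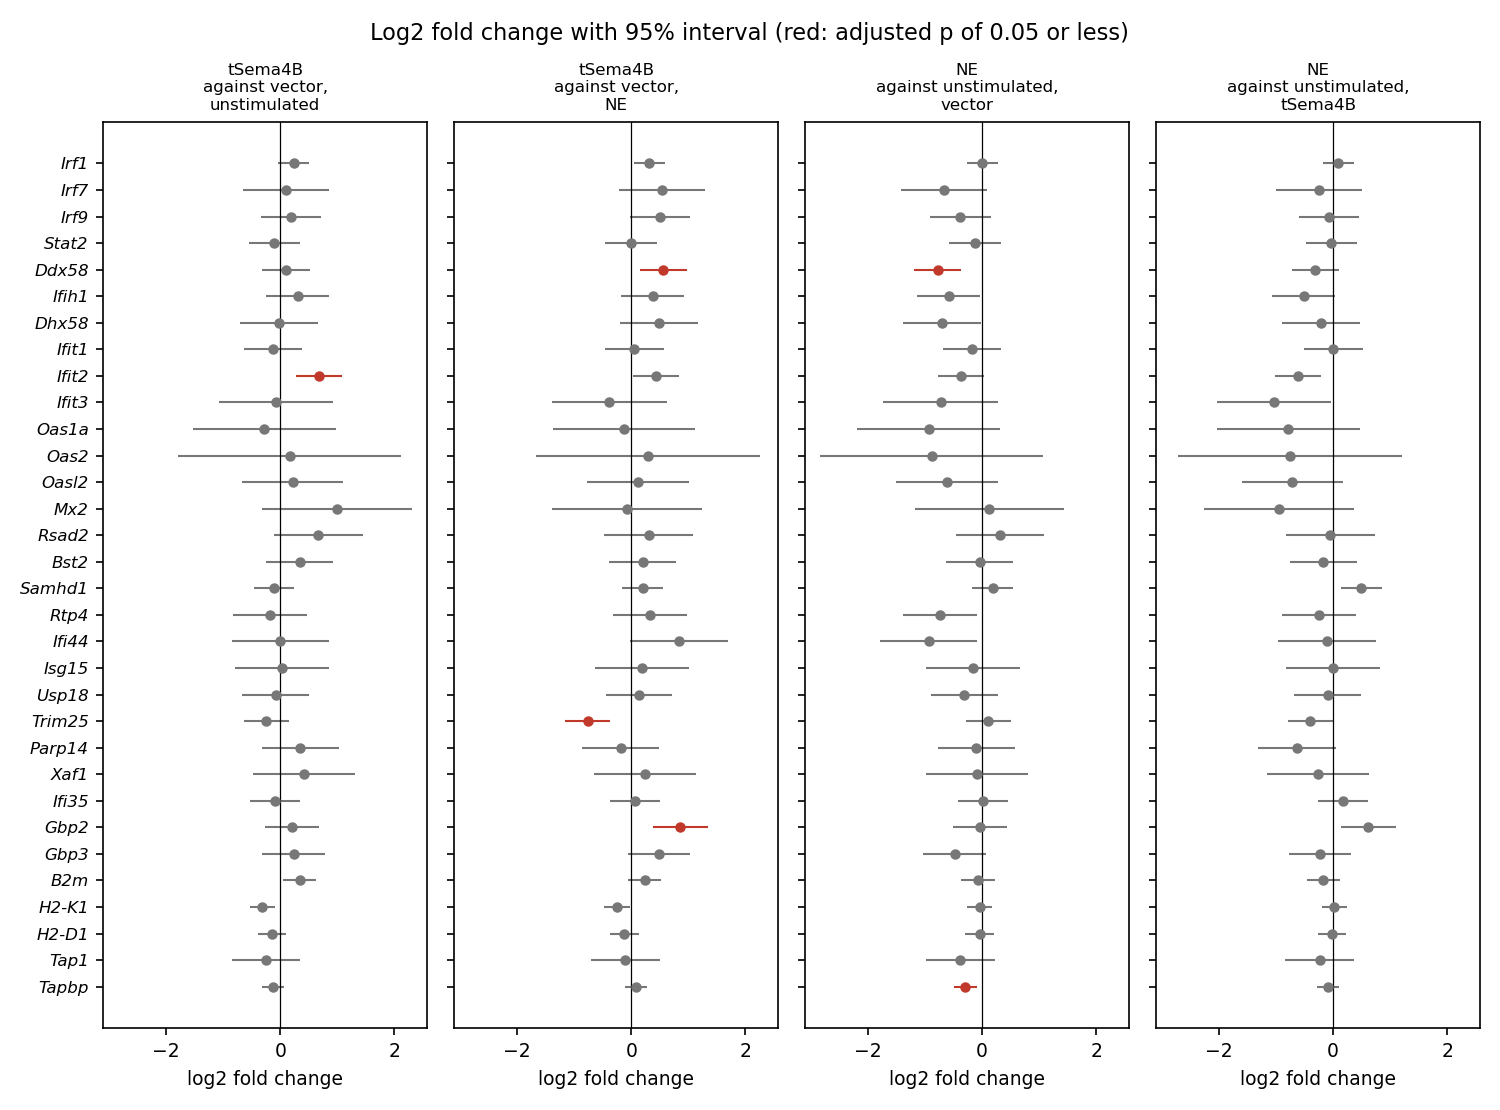
Log2 fold change (points) with its 95% interval (bars) for 32 genes in the 4 comparisons of 2 groups, from limma on log2(normalised count + 1); red marks an adjusted p of 0.05 or less. In both comparisons of NE with no stimulation 26 of the 32 points lie left of 0, but 2 in vector cells and 0 in tSema4B cells are marked. Of all genes tested, 47.9% in vector and 49.5% in tSema4B cells had values above 0.

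In tSema4B cells, NE was compared with no stimulation and 0 of the 32 genes passed in limma. At an unadjusted p under 0.05, 2 were higher and 3 lower (10.7% and 9.19% of all genes). DESeq2 called Ifit2 lower, and edgeR called none. Of all genes tested 3.68% were higher and 2.58% lower. In this line 26 of the 32 had values below 0 and 6 above 0, while 49.5% of all genes lay above 0. The median log2 fold change was -0.19, against -0.0048 over all genes. As in vector cells, the signs of these genes are not separate observations. Of the adipocyte markers 5 of 12 were higher with NE in tSema4B cells (median log2 fold change 0.49), and 3 were higher and 2 lower in vector cells (0.07). Of the 10 preadipocyte and fibroblast markers 1 was higher and 4 were lower in each line, and the part of these markers in the NE comparisons was not tested.

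Ifit2 was at 359.9, 269 and 229 in tSema4B unstimulated and at 173, 187 and 189 in tSema4B NE libraries, with no overlap. Its log2 fold change was -0.62 (SE 0.20, limma adjusted p = 0.0648; DESeq2 adjusted p = 0.0347). It passed in limma without tSema4B unstimulated replicate 3 (-0.76, adjusted p = 0.0383). Samhd1, at 154, 148 and 178 before and 227, 248 and 202 after NE, and Gbp2, at 174, 129.9 and 157 before and 229, 263 and 215 after NE, were the others of the 3 whose groups did not overlap, and 20.7% of all genes had groups apart. Their log2 fold changes were 0.49 (limma adjusted p = 0.0936) and 0.62 (limma adjusted p = 0.120). Ifit3, a partner of Ifit1 in RNA binding, was at 108, 95.9 and 47.9 before and 90.1, 33.1 and 18.5 after NE. Its log2 fold change was -1.03 (95% interval -2.03 to -0.031, limma adjusted p = 0.233). It passed without tSema4B NE replicate 1 (-1.64, limma adjusted p = 0.0396). With each library left out in turn the Ifit3 value ran from -1.64 to -0.53, with limma adjusted p up to 0.617.

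Whether the NE response differed between the lines was tested with the interaction term, and 0 of the 32 genes passed in limma, edgeR or DESeq2. At an unadjusted p under 0.05 the count was 0 in limma (all genes 5.02% higher and 5.21% lower) and 1 higher in each of edgeR and DESeq2. Of all genes tested 0.025% passed in limma (3 genes higher), while edgeR called 3 higher and 1 lower and DESeq2 29 higher and 58 lower. The difference was 0.66 for Gbp2 (95% interval -0.022 to 1.33), -0.51 for Trim25 (-1.07 to 0.048), 0.47 for Ddx58 (-0.12 to 1.05) and -0.24 for Ifit2 (-0.82 to 0.33) on the log2 scale. A call in 1 condition and not in the other is thus not shown to be a difference between conditions. Over the 5 comparisons 5 of the 32 genes were called at least once and 27 were not. Of those 27, 9 were called under at least 1 alternative, and 18 under none.

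Interferons themselves were at the limit of detection. The 11 ligand genes of a fixed list had 13 reads in all 12 libraries together, and 8 of them, Ifnb1 and Ifng included, had none. The receptors and kinases, 9 of 10 tested, had calls in each comparison of 2 groups. Jak1 was higher in tSema4B cells unstimulated (log2 fold change 0.44, limma adjusted p = 6.62e-04) and with NE (0.53, limma adjusted p = 7.23e-05), and with NE in vector (0.31) and tSema4B cells (0.40). Unstimulated, 2 of the 9 were higher in tSema4B cells (5.64% of all genes), Ifnar2 (0.53) being the other. With NE 4 of the 9 were higher (9.79% of all genes), namely Jak1, Ifnar1 (0.52), Ifnar2 (0.52) and Ifngr2 (0.43). None was lower. Some of these calls were lost under alternatives, those of Ifnar2 under 5 unstimulated and 4 with NE, that of Ifngr2 under 2 and that of Jak1 in vector cells under 4. Ifnar2 shares 315 exon bases with Gm21970, so its counts may hold reads of Gm21970 or miss some of its own.

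Among 12 tested sensing adaptors and kinases, 1 was higher and 1 lower in tSema4B cells unstimulated (all genes 5.64% and 7.39%), and 2 were higher and 2 lower with NE (all genes 9.79% and 11.2%). Tmem173, which encodes the DNA-response adaptor STING, was higher in tSema4B cells unstimulated (0.78, lost under 2 alternatives) and with NE (1.04), and Myd88 was lower in both (-0.43 and -0.43). The Myd88 calls were lost under 7 and 5 alternatives. With NE Irf5 was higher in tSema4B cells (1.04, lost under 6 of 15 alternatives). Myd88 shares 290 exon bases with Acaa1a and Irf5 411 with Tnpo3, so their counts may hold reads of these neighbours or miss some of their own. Aim2, an inflammasome DNA sensor, was called lower at 14.8 ± 7.83 against 1.79 ± 3.10 normalised counts (SD, n = 3), a call near the limit of detection that was lost under 5 of 15. With NE Myd88 was higher in vector (0.60) and tSema4B cells (0.60, lost under 1), and Irf5 was lower in vector cells (-1.38, lost under 1). Among 10 negative regulators, 3 were higher with NE in vector cells (6.82% of all genes) and 4 in tSema4B cells (3.68% of all genes). Rnf125, a ligase that marks RIG-I for decay, was lower in tSema4B cells (-1.99 unstimulated and -1.44 with NE) and higher with NE in tSema4B cells (1.19). Socs3, a feedback inhibitor of Jak kinases, was higher with NE in vector (1.89) and tSema4B cells (1.41), as were the phosphatases Ptpn1 (0.60 and 0.66, lost under 3 alternatives each) and Ptpn2 (0.60, lost under 1, and 0.68).

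Of the 48 other interferon-stimulated genes, 3 (6.25%, against 5.64% of all genes) were higher in tSema4B cells unstimulated and 0 lower, namely Ly6e (0.70), Ifitm3 (0.67) and Ifi204 (0.54). With NE 6 were higher (9.79% of all genes), led by Ly6e (1.01), Adar (0.74) and Pml (0.49), and 1 was lower (11.2% of all genes), Ifi27 (-0.41). The call of Ly6e held under the 16 alternatives, while that of Adar was lost under 6 (adjusted p up to 0.232), of Pml under 2 and of Ifi27 under 8 (adjusted p up to 0.253), both other scalings among them. Adar shares 1365 exon bases with Chrnb2, so its counts may hold reads of Chrnb2 or miss some of its own. NE in vector cells gave 3 higher and 3 lower (6.82% and 4.78% of all genes), led by Stat3 (0.71), Tor3a (-0.64, lost under 1) and Trafd1 (-0.51). In tSema4B cells 1 was higher, Stat3 (0.51), and 2 were lower, Tor3a (-0.61, lost under 5) and Slfn9 (-0.39, lost under 8), against 3.68% and 2.58% of all genes. Of the 18 other tested class I genes, Calr (0.36) was higher and Psme2 (-0.63, lost under 3) lower in tSema4B cells with NE (9.79% and 11.2% of all genes), and Tapbpl (-0.92, lost under 6) was lower with NE in tSema4B cells (2.58% of all genes). Of 8 class II genes 3 were tested and none was called, and H2-Aa, H2-Eb1 and Ctss had no read.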

How the data were processed

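RNAseq libraries were made by SMART-Seq2 and Nextera XT from total RNA and read single-end. Per the labels and the methods of the study, the authors screened the reads, aligned them with STAR 2.7.9a to mm10 (GRCm38.p4), counted them with htseq-count and divided the counts by DESeq2 size factors. The deposited signal is thus a normalised read count per gene. The annotation, strand setting and treatment of multimapping reads are not given in the sources used here. Whole reads were recovered for 100% of values, to within a tolerance of 0.01 read.

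Values were analysed as log2(value + 1) with limma 3.58.1 in R 4.3.3, for genes with at least 10 normalised counts in at least 3 libraries. The 4 groups were fitted in 1 model, with variances moderated towards a trend over all genes. Two-sided p-values were adjusted over 11998 genes by the Benjamini-Hochberg method and called at 0.05. Fold changes on this scale understate changes of low genes. The alternatives were pseudocounts of 0.5 and 10, no filter or a filter of 50, rescaling to the same total, quantile normalisation, edgeR 4.0.16 and DESeq2 1.42.0 on whole reads, models of the 6 libraries compared, a replicate block, stricter thresholds and each library left out in turn. The count of genes lowest in 1 library, and its rescaled and quantile forms, were added after the data were seen. Gene positions came from a GENCODE annotation of GRCm38 and promoter windows from RefSeq. Scripts were tested on simulated data.

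The members and lists were chosen with earlier results of these data known. Full statistics are given for members called in at least 1 comparison. From the other pathway lists all called genes are named, except among the 48 other interferon-stimulated genes. There the called genes with the largest change in each comparison, and Ifi27, are named. Other members are named for their spread, their place in the order of libraries, groups that did not overlap, or a call under an alternative, and these were chosen after their values were seen.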

Additional observations from a re-analysis of the deposited data

Results flagged for a closer look

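Irf5 and Trafd1, 2 genes of the wider pathway lists, had tSema4B libraries that all lay below the vector libraries without stimulation and all above them with NE. Irf5 averaged 44.7 (vector) and 33.1 (tSema4B) normalised counts unstimulated, and 17.2 and 37.0 with NE. The difference between the conditions was 1.48 on the log2 scale (SE 0.50), with a limma adjusted p of 0.288 for the interaction. Trafd1 averaged 378 and 335 unstimulated and 265 and 343 with NE, a difference of 0.53 (SE 0.17, limma adjusted p = 0.253). Neither passed the test of the difference. None of the 32 tested interferon response and antigen presentation genes had this pattern.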

How the results depend on the processing

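Of the 6 calls among the 32 genes, 1 (Trim25 with NE) held under all 16 alternatives that kept the threshold, and none of the 6 reversed. Unstimulated, the count higher in tSema4B cells (1) became 0 without the filter on low values, with a fold threshold and at an adjusted p of 0.01, and 0 to 2 with each library left out. The count lower (0) became 1 with a pseudocount of 10, a filter of 50 or quantile normalisation and 0 to 1 with a library left out. With NE, the count higher (2) became 1 with a pseudocount of 0.5, no filter or quantile normalisation, 3 after rescaling to the same total (with Irf1) or in a model of the 6 libraries compared (with Ifi44), 0 with a fold threshold or at 0.01, and 0 to 3 with a library left out. The count lower (1) became 0 with the fold threshold and 1 to 2 with a library left out. For NE in vector cells the count lower (2) became 3 with edgeR or in a model of the 6 libraries compared (with Ifi44 in each), 1 without the filter, 0 with a fold threshold or at 0.01, and 0 to 6 with a library left out. For NE in tSema4B cells the count lower (0) became 1 with a filter of 50 or DESeq2, and 0 to 1 with a library left out. The cause was not tested.

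Over all genes tested, replicate numbers did not pair the libraries: same-numbered libraries had correlations of deviations from -0.047 to 0.028 over 18 pairs. In the 32 genes, the median deviations of tSema4B replicates 1, 2 and 3 were 0.33, 0.07 and -0.33 unstimulated. With NE they were 0.34, 0.07 and -0.29, the same order. In vector libraries they were -0.55, 0.09 and 0.46 unstimulated and 0.04, -0.27 and 0.13 with NE. Whether tSema4B libraries of 1 number belong together was not tested. With the replicate block the count lower unstimulated was 1, the count higher with NE 1 and the count lower with NE in vector cells 1. Depth limits Mx1, Mx2, Oas1a and Oas2, where 1 read was worth 0.593 to 1.55 normalised counts.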
